A study of Homo sapiens with 4 samples.

Results

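The genes described here encode the oxidative phosphorylation (OXPHOS) system: subunits of the proton-pumping respiratory complexes I, III and IV and of ATP synthase (complex V). Members were all genes of the deposited single-cell tables whose symbol starts as a subunit of one of these complexes does (NDUFA, NDUFB, NDUFC, NDUFS, NDUFV, UQCR, CYC1, COX5 to COX8 and ATP5) or is one of the mitochondrially encoded MT- subunit genes. The rule found 98 of 36601 genes, of which 85 were nuclear and 13 were MT-. Of the nuclear members, 82 were subunit genes (38 of complex I, 10 of complex III, 15 of complex IV and 19 of complex V, the last including ATP5IF1, an inhibitor protein of ATP synthase), and 3 were antisense or divergent transcripts (NDUFB2-AS1, NDUFV2-AS1 and NDUFA6-DT). The MT- members were 7 genes of complex I, 1 of complex III, 3 of complex IV and 2 of complex V. All 98 had at least 1 UMI, the barcode that marks 1 captured transcript, in the cells kept. COX4I1 and COX4I2, subunits of complex IV, lie outside the rule and were followed in a companion list. NDUFA4 was counted with complex I by its name, although its protein is now placed in complex IV.

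OXPHOS complexes are built from proteins of both genomes. Complex I oxidises NADH, complex III passes electrons to cytochrome c, complex IV reduces oxygen, and complex V uses the resulting proton gradient to make ATP. The MT- genes supply hydrophobic core subunits and are transcribed as long precursors inside the mitochondrion, whereas the nuclear genes are transcribed one by one and their proteins are imported. In the mammalian blastocyst, the trophectoderm is known for high respiration and many active mitochondria, while naive pluripotent cells use both respiration and glycolysis.

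Cells came from H9, an established human embryonic stem cell line, kept naive in PXGL medium, depleted of feeder cells and aggregated in microwells to form blastoids, stem cell models of the blastocyst. Treated cultures received 4 mM dm-αKG, a cell-permeable form of α-ketoglutarate, for the first 40 h and control cultures received 0 mM. All were moved into PALLY medium and collected as aggregates at 40 h or as blastoids at 120 h. Blastoids with a single cavity were hand-picked. By the study's methods LY medium came later than 40 h, so that only the blastoids reached it. Hashtag antibodies marked each culture and 3′ transcript ends were captured in 2 droplet runs. Run 1 held aggregates and blastoids at both doses and run 2 held blastoids at both doses, so that each dose had 1 aggregate culture and 2 blastoid cultures. By the study's methods the blastoid runs were independent experiments and the aggregates were made once. All cultures were of 1 line, so that p-values below speak only of these cultures. The edgeR tests also pool the spread over genes. A dose test within a class left 1 residual degree of freedom, beside prior degrees of freedom of 26.3 (TE-like) and 35.8 (Epi-like). The test of TE-like against Epi-like cells left 3, beside 13.3. These edgeR p-values therefore rest mostly on spread pooled over genes.

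After hashtag assignment and filtering, 12647 cells remained: 1054 aggregate cells at 4 mM and 1201 at 0 mM, and 10392 blastoid cells. A blastoid cell was called TE-like (trophectoderm-like) where its summed UMIs of KRT8, KRT18, GATA3 and CLDN4 exceeded those of POU5F1, DPPA5, DPPA4, L1TD1 and TDGF1, and Epi-like (epiblast-like) otherwise. This gave 418 TE-like cells (49 at 4 mM and 18 at 0 mM in run 1, 170 at 4 mM and 181 at 0 mM in run 2) and 9974 Epi-like cells (1043 at 4 mM and 408 at 0 mM in run 1, 4804 at 4 mM and 3719 at 0 mM in run 2). A wider trophectoderm list summed to 12641 to 15240.5 CPM (UMI counts scaled to a common library total) in TE-like cells and 264 to 359 CPM in Epi-like cells, and an epiblast list to 882 to 1607 CPM in TE-like cells and 5313 to 5529 CPM in Epi-like cells. These lists share genes with the rule and are a description of it. Lists of other cell types were lower: amnion genes summed to at most 7.43 CPM and primitive endoderm genes to 77.8 to 184 CPM in TE-like cells and 22.0 to 27.4 CPM in Epi-like cells. Post-implantation epiblast genes stood at 735 to 932 CPM in TE-like cells and 260 to 371 CPM in Epi-like cells, and their part in the results below was not tested. The share of TE-like cells within 2-fold of the class boundary was 4.08 to 9.94%. The runs shared 28 barcodes. Cells above a mitochondrial share of 15% were removed, and the 13 MT- members are all the MT- genes counted, so this filter directly caps the MT- set. Before any filter, unlike shares of the hashtagged cells were above this limit: 39.2% of 4 mM and 24.5% of 0 mM aggregate cells, 17.9% of 4 mM and 45.8% of 0 mM blastoid cells in run 1, and 8.68% of 4 mM and 13.9% of 0 mM blastoid cells in run 2. Many of these cells also lay below the minimum of UMIs per cell. The limit alone removed 146 of 1892 hashtagged cells at 4 mM and 62 of 1676 at 0 mM in aggregates. In blastoids it alone removed 32 of 1494 at 4 mM and 52 of 950 at 0 mM in run 1, and 43 of 5588 and 46 of 4812 in run 2. MT- shares and dose results are therefore also given without this limit, with the UMI minimum kept.

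The 13 MT- genes together took more UMIs than the 85 nuclear members in every culture and class. In aggregates the nuclear members took 2.89% of UMIs at both doses, whereas the MT- members took 5.27% at 4 mM and 4.42% at 0 mM. In TE-like cells the nuclear share was 2.46% (run 1) and 2.43% (run 2) at 4 mM, against 2.77% and 2.47% at 0 mM. In Epi-like cells it was 2.39% and 2.35% at 4 mM, against 2.58% and 2.40% at 0 mM. The nuclear share was thus lower at 4 mM in every blastoid pair, with the widest gap, a log2 ratio of −0.17, in TE-like cells of run 1, where 0 mM had 18 cells. In run 2 the log2 ratios were −0.02 (TE-like) and −0.03 (Epi-like). Both classes come from the same 2 pairs of cultures, so these pairs are not independent. The MT- share was 4.43% and 4.31% at 4 mM and 4.61% and 4.23% at 0 mM in Epi-like cells, without a common direction over runs. In TE-like cells it was 3.90% and 4.22% at 4 mM, against 5.90% and 3.93% at 0 mM. The highest value, 5.90%, came from the 18 TE-like cells of run 1 at 0 mM. Without the mitochondrial limit the MT- share was 6.21% at 4 mM and 4.74% at 0 mM in aggregates. In TE-like cells it was then 4.57% and 4.51% at 4 mM, against 5.90% and 4.08% at 0 mM, and in Epi-like cells 4.56% and 4.37% at 4 mM, against 5.48% and 4.32% at 0 mM. With 2 cultures a dose an exact permutation test cannot go below 0.333, so no test of these shares was made.

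**Figure D1:**
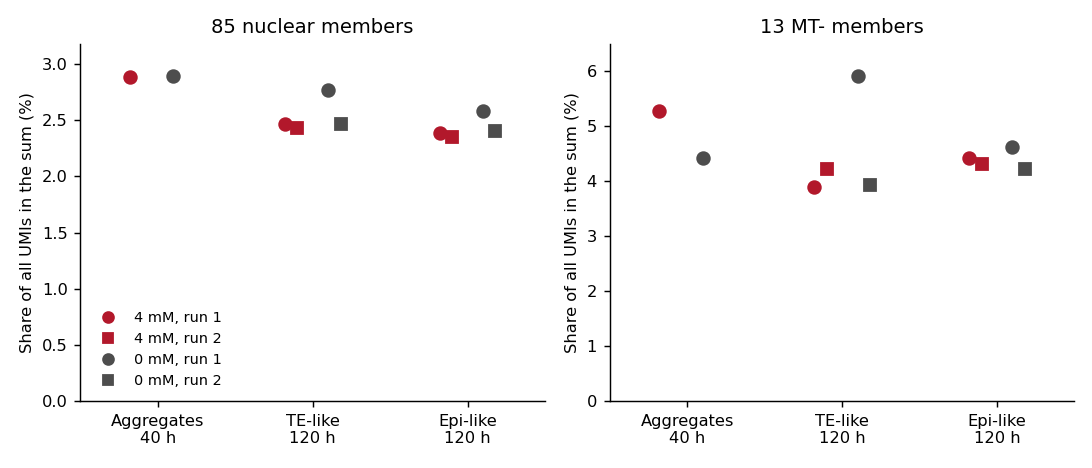
Share of all UMIs (%, y axes from 0) taken by the 85 nuclear members (left) and the 13 MT- members (right) in each summed culture and class, with 4 mM in red, 0 mM in grey, circles for run 1 and squares for run 2. Aggregates lie highest for the nuclear set at 2.89%, and the MT- share of 1 TE-like culture, at 5.90%, stands above all others.

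Among nuclear members the most abundant transcript in mean CPM over all cultures and classes was UQCRH, the hinge protein of complex III, at 2102 CPM. It was followed by ATP5MC3, a gene of the proton-carrying c subunit of ATP synthase, at 1036 CPM, COX7C of complex IV at 879.6 CPM, NDUFA4 at 856 CPM and NDUFS5 of complex I at 850.5 CPM. MT-CO1 and MT-CO2, catalytic core subunits of complex IV, averaged 8961 and 8866 CPM. Each transcript gives at most 1 tag at its 3′ end, so these levels are not per length and were not scaled to it. UQCRHL, a near-identical copy of UQCRH, stood at 2.19 to 11.8 CPM in blastoid cells, and reads shared between both make its value uncertain. Exons of 11 of the 98 members overlap another counted gene on the same strand, among them MT-ATP8 with MT-ATP6 and MT-ND4L with MT-ND4, and counts of such pairs can be divided between them by the counting.

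Both classes were set against each other within each blastoid culture to ask how the OXPHOS genes differ between the lineages. Of 78 nuclear members tested, 51 rose and 5 fell in TE-like cells (edgeR quasi-likelihood F test, Benjamini-Hochberg adjusted p below 0.05, TMM scaling, 4 cultures in each class). Over all 12352 genes tested, 23.1% rose and 25.9% fell, so that the nuclear members rose in 65.4% of cases and fell in 6.41%. Their median log2 change was 0.32, and the median over all genes was −0.04. The count of calls depended on the scaling. TMM factors were 0.904 to 0.965 in TE-like sums and 1.06 to 1.09 in Epi-like sums, and with library totals alone the median over all genes fell to −0.27, a shift of 0.23. With totals alone 23 nuclear members rose and 10 fell, which is 29.5% and 12.8% of them, while 14.1% of all genes rose and 38.3% fell. Relative to the median of all genes, the nuclear members stood 0.36 higher under TMM and 0.37 higher under totals. All 23 that rose under totals also rose under TMM, and 28 rose under TMM alone, so only the 23 and the 5 that fell under both are called raised or lowered below.

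**Figure D2:**
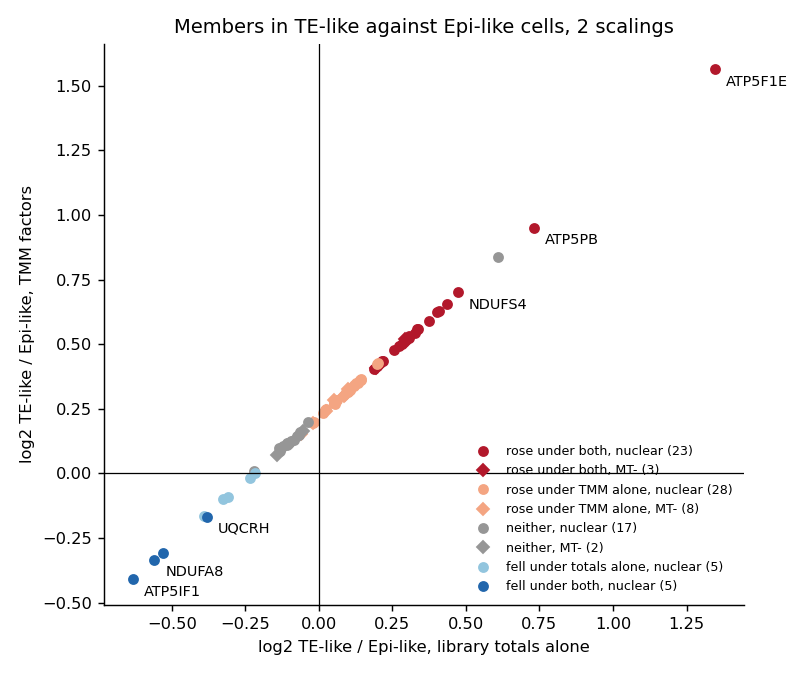
Log2 change in TE-like against Epi-like cells for each member tested (COX7A1, lower than the range shown, is left out), with library totals alone on the x axis and TMM factors on the y axis. Circles are nuclear and diamonds MT- members, coloured by their calls, and TMM moves all points up by about the same amount, so that 28 nuclear members are called under TMM alone.

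The 23 raised members came from every complex. They were 10 of 19 nuclear genes tested for ATP synthase, 9 of 37 for complex I, 2 of 10 for complex III and 2 of 12 for complex IV. Under TMM 15, 21, 7 and 8 genes of these complexes rose. Over all genes tested 14.1% rose under totals and 23.1% under TMM, so that the complex III and IV counts under totals were near the share of all genes. The 2 members with the largest increases, ATP5F1E and ATP5PB, belong to ATP synthase. ATP5F1E (chromosome 20, 59025475 to 59032345, minus strand, GRCh38) encodes the ε subunit at the foot of the catalytic F1 head. It had 697, 653, 562 and 524 CPM in TE-like cells (run 1 at 4 and 0 mM, then run 2 at 4 and 0 mM, an order kept below), against 261, 247, 225 and 219.7 CPM in Epi-like cells. The lowest TE-like value was more than 2 times every Epi-like value. Its log2 change was 1.56 ± 0.07 (SE, adjusted p = 2.44e-11 in edgeR) under TMM and 1.35 under totals. In aggregates ATP5F1E stood at 374 CPM at 4 mM and 334 CPM at 0 mM, between the blastoid classes. ATP5PB (chromosome 1, 111448864 to 111462773, plus strand) encodes the b subunit of the peripheral stalk that holds the F1 head still. It had 276, 324, 279.8 and 280.0 CPM in TE-like cells, against 164, 184, 168 and 178 CPM in Epi-like cells, without overlap. Its log2 change was 0.95 ± 0.08 under TMM and 0.73 under totals.

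All 5 genes of the F1 head rose under TMM, and 4 (ATP5F1A, ATP5F1B, ATP5F1D and ATP5F1E) also under totals. ATP5F1B, the catalytic β subunit, had 516.5, 659, 584 and 605 CPM in TE-like cells, against 433, 490.1, 479 and 501 CPM in Epi-like cells, a log2 change of 0.52 under TMM and 0.31 under totals. ATP5F1A, the α subunit, had a change of 0.41 under TMM and 0.20 under totals. Of the 4 peripheral stalk genes, ATP5PB and ATP5PO rose under both scalings, ATP5PF under TMM alone, and ATP5PD fell under totals alone. Of the small membrane subunits, all 5 tested rose under TMM and 4 (ATP5MD, ATP5ME, ATP5MF and ATP5MG) under both. ATP5MD had a log2 change of 0.59 and ATP5MG of 0.54 under TMM, and 0.37 and 0.33 under totals. The c-ring genes were not called under both scalings: ATP5MC2 (0.32) and ATP5MC3 (0.27) rose under TMM alone, and ATP5MC1 had a change of 0.09. Summed over the 19 ATP synthase genes, TE-like cells had 7449.6, 8154, 7186 and 7208 CPM, against 6316, 6898, 6221 and 6328 CPM in Epi-like cells. ATP5IF1 (chromosome 1, 28236109 to 28246906, plus strand), which blocks ATP hydrolysis by the enzyme, went the other way. It had 181, 188, 187 and 192 CPM in TE-like cells, against 278, 308, 278 and 301 CPM in Epi-like cells, and fell by 0.41 under TMM (adjusted p = 4.77e-04 in edgeR) and by 0.63 under totals.

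**Figure D3:**
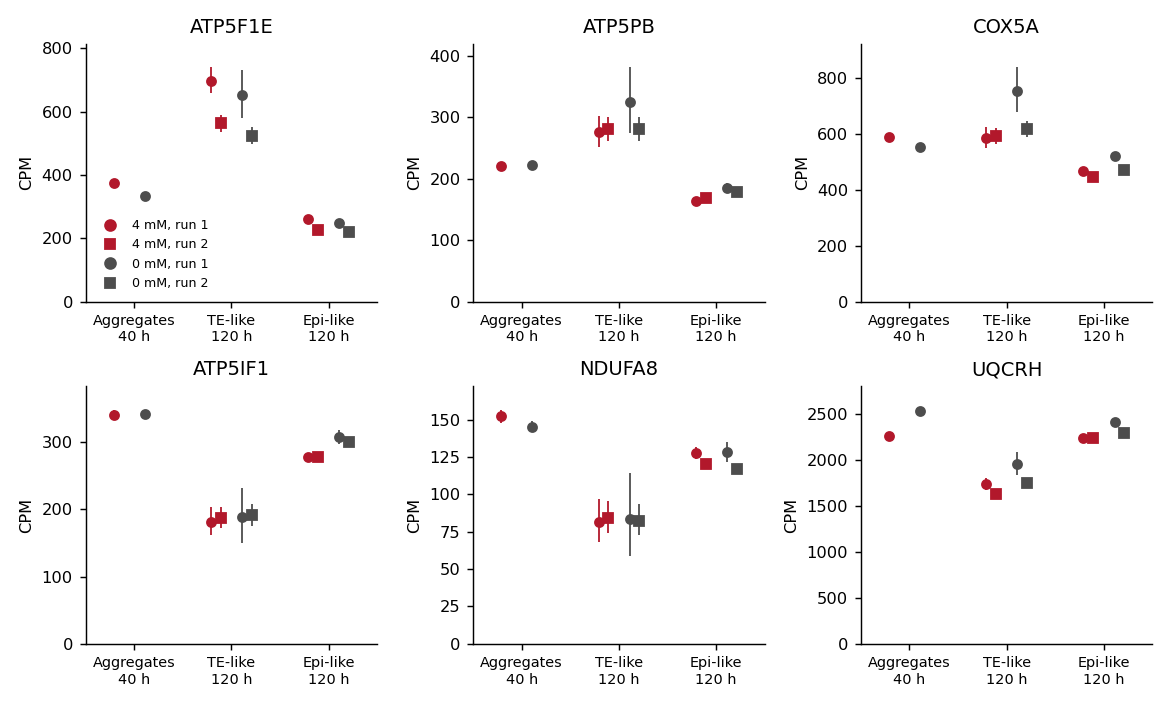
CPM (y axes from 0) of 6 members in each culture, with aggregates, TE-like and Epi-like cells along the x axis, 4 mM in red left of 0 mM in grey, circles for run 1, squares for run 2, and bars for exact 95% Poisson intervals, which cover counting error only. ATP5F1E, ATP5PB and COX5A lie higher in TE-like than in Epi-like cells of every culture, and ATP5IF1, NDUFA8 and UQCRH lie lower.

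In complexes I, III and IV, NDUFS4, an accessory subunit at the NADH-oxidising end of complex I, had 87.3, 76.7, 86.1 and 77.8 CPM in TE-like cells, against 55.6, 59.0, 61.6 and 60.8 CPM in Epi-like cells, a log2 change of 0.70 under TMM and 0.47 under totals. NDUFV3, of the same module, changed by 0.63 and 0.40, and the accessory subunits NDUFC1 and NDUFA5 by 0.56 each under TMM and by 0.34 and 0.33 under totals. UQCRQ, a small subunit of complex III, had 259, 307, 216 and 227 CPM in TE-like cells, against 189, 212, 167 and 171 CPM in Epi-like cells, a change of 0.65 and 0.44. COX5A of complex IV had 586, 756, 593 and 619 CPM in TE-like cells, against 469, 521, 446 and 473 CPM in Epi-like cells, a change of 0.63 and 0.41. NDUFA8 (chromosome 9, 122144058 to 122159779, minus strand), an accessory subunit of the membrane arm, had 81.7, 83.2, 84.4 and 82.5 CPM in TE-like cells, against 128, 128, 120.1 and 117 CPM in Epi-like cells, and fell by 0.33 under TMM (adjusted p = 0.00624 in edgeR) and by 0.56 under totals. NDUFA12, another accessory subunit, fell by 0.31 and 0.53. UQCRH had 1732, 1956, 1632 and 1744 CPM in TE-like cells, against 2235, 2410.2, 2235 and 2292 CPM in Epi-like cells, and fell by 0.17 and 0.38. UQCRH made up much of its complex. On library totals the nuclear complex III genes summed to 3782, 4165, 3572 and 3757 CPM in TE-like cells. In the Epi-like cells of the same cultures they summed higher, to 4128, 4466, 4080.2 and 4200 CPM. Under totals 2 of the 10 rose and 1 fell, and under TMM 7 rose. These sums are not scaled by the TMM factors, so their order holds for library totals only.

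To show what sequence lies at the start of these genes, the promoters of the members with the largest increase in ATP synthase and of the lowered NDUFA8 are given, from RefSeq windows (GRCh38.p14) of 250 bases before to 50 bases after each start, 5′ to 3′ on the gene's strand. Capitals mark matches, on either strand, to motifs of factors known to bind many nuclear OXPHOS promoters: NRF1 (GCGCA, any base, then GCGC) and YY1 (AAGATGGC). ATP5F1E (chr20:59032286-59032585) held none of them. ATP5PB (chr1:111449214-111449513) held 1 YY1 match and NDUFA8 (chr9:122159730-122160029) 2 overlapping NRF1 matches. The ATP5PB window lies wholly inside the GENCODE gene span given above, which begins at 111448864, so the RefSeq start used is downstream of the GENCODE start.
ATP5F1E: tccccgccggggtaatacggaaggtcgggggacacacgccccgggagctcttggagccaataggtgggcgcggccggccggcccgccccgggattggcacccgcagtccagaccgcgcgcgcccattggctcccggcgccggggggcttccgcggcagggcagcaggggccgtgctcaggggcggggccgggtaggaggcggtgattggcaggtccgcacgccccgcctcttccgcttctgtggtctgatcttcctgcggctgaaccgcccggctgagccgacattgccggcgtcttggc
ATP5PB: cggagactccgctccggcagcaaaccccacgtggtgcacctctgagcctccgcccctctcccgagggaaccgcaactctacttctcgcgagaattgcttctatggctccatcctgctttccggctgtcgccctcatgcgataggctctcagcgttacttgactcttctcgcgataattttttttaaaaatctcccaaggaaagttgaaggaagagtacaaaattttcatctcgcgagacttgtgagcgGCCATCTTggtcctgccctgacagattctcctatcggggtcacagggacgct
NDUFA8: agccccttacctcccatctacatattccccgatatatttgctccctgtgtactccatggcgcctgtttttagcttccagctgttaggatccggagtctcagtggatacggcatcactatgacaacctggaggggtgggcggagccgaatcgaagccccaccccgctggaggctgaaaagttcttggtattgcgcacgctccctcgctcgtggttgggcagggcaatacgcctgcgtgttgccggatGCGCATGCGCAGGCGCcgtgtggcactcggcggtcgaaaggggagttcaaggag
Of the 82 nuclear subunit genes, 63 matched a window. The NRF1 motif was found in 14 of the 63 (22.2%) and in 6.28% of 27305 windows of the table, and the YY1 motif in 10 (15.9%) and in 3.03% of the windows. An ETS motif (ACCGGAAG), of the family of the OXPHOS regulator GABPA, was in 2 (3.17%) and in 2.32% of the windows. A match is a run of letters, and no binding was measured.

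Of the 13 MT- genes, 11 (84.6%) rose in TE-like against Epi-like cells under TMM and none fell, with a median log2 change of 0.30. Under totals 3 (23.1%) rose: MT-ND3, MT-ND4L and MT-ND5, all core subunits of complex I. Of all genes tested, 23.1% rose under TMM and 14.1% under totals. MT-ND4L had 113, 173, 159 and 189 CPM in TE-like cells, against 104, 116, 133 and 151 CPM in Epi-like cells, higher in all 4 cultures, with a change of 0.52 under TMM and 0.29 under totals. MT-ND5 had 977, 1437, 1134 and 1212 CPM in TE-like cells, against 982, 1099, 979.9 and 1056 CPM in Epi-like cells. MT-ND3 had 2239, 3762.5, 2015 and 1986 CPM in TE-like cells, against 2314.5, 2464, 1786 and 1832 CPM in Epi-like cells. Both were lower in TE-like cells of run 1 at 4 mM and higher in the other 3 cultures. Under TMM the changes of the other genes were 0.33 for MT-ND6, 0.31 for MT-ND1, 0.30 for MT-ND2 and MT-ND4, 0.28 for MT-ATP8, 0.24 for MT-CYB, 0.19 for MT-CO1 and 0.15 for MT-CO2, with 0.16 for MT-ATP6 and 0.07 for MT-CO3 not passing. MT-CO1 and MT-CO2 were −0.02 and −0.06 under totals. The 18 cells of run 1 at 0 mM carried much of this: on library totals the median MT- log2 ratio was 0.39 in that culture, against −0.15 in run 1 at 4 mM, 0.03 in run 2 at 4 mM and −0.03 in run 2 at 0 mM. Without that culture the TMM median was 0.18 and 9 MT- genes rose, and without run 2 at 4 mM 7 did.

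Genes that serve the same pathway outside the rule were read from lists of complex II, assembly factors and regulators. Named here are those called under both scalings. Over all genes tested 23.1% rose and 25.9% fell under TMM, and 14.1% rose and 38.3% fell under totals. Under TMM 8 of 16 complex I, 3 of 6 complex III and 7 of 20 complex IV assembly factors rose, and 2, 1 and 2 fell. Under totals 3, 1 and 4 of them rose, and 2, 1 and 6 fell. Of 26 genes of mitochondrial transcription and RNA handling, 2 rose and 1 fell under TMM, and 0 rose and 5 fell under totals. The lists are small, so the genes are named as a description. COX20, which helps assemble the MT-CO2 protein into complex IV, had 141, 153, 158 and 149.9 CPM in TE-like cells, against 73.6, 74.6, 70.3 and 67.1 CPM in Epi-like cells, a log2 change of 1.31 ± 0.09 under TMM and 1.08 under totals. It was joined among the 20 complex IV assembly factors by PET100, COX16 and COX17, while COX18 and SURF1 fell. Of 16 complex I assembly factors NDUFAF2 (0.66), NDUFAF8 (0.64) and TMEM126A (0.51) rose, and NDUFAF7 and TMEM70 fell by 0.87 and 0.60 under TMM. Of 6 complex III factors BCS1L, which inserts the Rieske iron-sulfur protein, rose by 0.68 and TTC19 fell by 0.80. Of the 4 complex II genes only SDHB, its iron-sulfur subunit, rose under both (0.71 and 0.48). Of 26 genes of mitochondrial transcription and RNA handling tested, GRSF1, which binds mitochondrial RNA, fell by 0.27 and none rose under both. Of 7 nuclear regulators tested, GABPB1, a partner of GABPA, rose by 0.75 and PPARGC1B, a coactivator, fell by 0.50. CYCS (cytochrome c) and COX4I1 rose under TMM alone.

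In TE-like cells no OXPHOS member passed the test of 4 mM against 0 mM. Over 9104 genes tested 0.648% rose and 0.791% fell. Of 76 nuclear members tested, 0 rose and 3 fell at an unadjusted p below 0.05 in edgeR, and DESeq2 gave 0 calls and 0 at an unadjusted p below 0.05. Their median log2 change was −0.09 (−0.15 in run 1 and −0.02 in run 2 on library totals), and that of all genes was −0.005. Of the 13 MT- genes 6 fell at an unadjusted p below 0.05 in edgeR and 0 in DESeq2, with a median of −0.22. Without the mitochondrial limit 2 fell at an unadjusted p below 0.05 in edgeR, none passed after adjustment, and the median was −0.08. MT-ND2 had 2277 CPM (run 1) and 2924 CPM (run 2) at 4 mM, against 4099.8 and 3084.5 CPM at 0 mM, a log2 change of −0.48 ± 0.13 (adjusted p = 0.0655 in edgeR). MT-ND4 had 3985 and 5062 CPM at 4 mM, against 7181 and 5107 CPM at 0 mM, a change of −0.45. Both differences lay almost wholly in run 1 (−0.85 for each), where 0 mM had 18 TE-like cells, and were −0.08 and −0.01 in run 2. The MT- median was −0.56 in run 1 and 0.06 in run 2. With some other settings 1 to 4 MT- genes passed the test as lower: 4 with RLE factors in place of TMM, for example. None passed in DESeq2, without the mitochondrial limit, or with MT- genes left out of the library totals. The same held at a higher hashtag quantile and in edgeR without the run in the model. Untested for low counts were ATP5MGL, COX6A2, COX6B2, COX7A1, COX8C, NDUFA4L2 and the 3 noncoding transcripts.

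In Epi-like cells, with more cells per culture, 4 of 83 nuclear members passed between 4 and 0 mM, 1 higher and 3 lower, and none of the 13 MT- genes did (0 higher and 3 lower at an unadjusted p below 0.05 in edgeR, median −0.05). Without the mitochondrial limit, which caps this set, 8 of the 13 MT- genes passed as lower at 4 mM and the median was −0.17. Over 17014 genes 5.2% rose and 3.49% fell. The nuclear median was −0.07 (−0.11 in run 1 and −0.03 in run 2 on library totals), beside −0.009 for all genes. COX7B, a small complex IV subunit (X chromosome, 77899440 to 77907376, plus strand), had 357 CPM (run 1) and 367 CPM (run 2) at 4 mM, against 459.6 and 402 CPM at 0 mM, and fell by 0.25 ± 0.07 (adjusted p = 0.0157 in edgeR). CYC1, cytochrome c1 of complex III (chromosome 8, 144095039 to 144097525, plus strand), had 174 and 202 CPM at 4 mM, against 221 and 216 CPM at 0 mM, and fell by 0.22 ± 0.07 (adjusted p = 0.0363 in edgeR). For both genes the 2 doses did not overlap, and run 1 gave the larger difference. DESeq2 called none of the nuclear or MT- members (at an unadjusted p below 0.05, 1 nuclear member was higher and 7 were lower, and 3 MT- genes were lower), and edgeR without the run in the model called none of the nuclear members.

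The other calls were tissue isoforms at low levels. COX7A1, the form of subunit 7A found in heart and muscle, had 7.08 and 5.82 CPM at 4 mM, against 4.48 and 4.42 CPM at 0 mM in Epi-like cells, and rose by 0.48 ± 0.13 (adjusted p = 0.0113 in edgeR). In aggregates it had 11.7 CPM at 4 mM and 5.01 CPM at 0 mM. In TE-like cells it had 0 UMIs in run 1 at both doses, where 3 UMIs would be 1.86 CPM at 4 mM and 6.57 CPM at 0 mM, and 1.36 CPM at 4 mM (4 UMIs) and 1.01 CPM at 0 mM (3 UMIs) in run 2. It was called lower in TE-like than in Epi-like cells (adjusted p = 4.86e-04 in edgeR). The general form COX7A2 had 662 and 659 CPM at 4 mM, against 732 and 685 CPM at 0 mM in Epi-like cells. COX6B2, the testis form of subunit 6B, had 1.33 and 1.60 CPM at 4 mM, against 2.79 and 3.18 CPM at 0 mM in Epi-like cells, and fell by 1.00 ± 0.18 (adjusted p = 1.83e-04 in edgeR), while the general COX6B1 had a change of −0.08. In aggregates COX6B2 had 4.52 CPM at 4 mM and 3.63 CPM at 0 mM, the opposite order. COX7B2, the second form of COX7B, was at 25.9 and 24.3 CPM at 4 mM, against 26.1 and 23.6 CPM at 0 mM. COX6A2 and COX8C, heart and testis forms, were too low for a test.

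**Figure D4:**
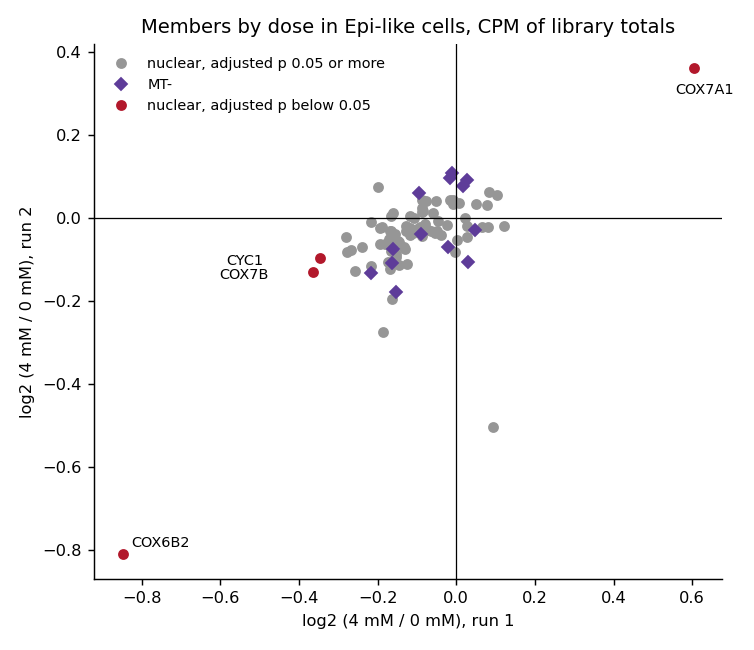
Log2 ratio of CPM at 4 mM over 0 mM in Epi-like cells, run 1 on the x axis and run 2 on the y axis, for the 93 of 96 tested members with a mean of at least 1 CPM. Most nuclear members (grey) and MT- members (purple diamonds) lie near 0, and the 4 nuclear members with an adjusted p below 0.05 (red) have the same sign in both runs.

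Among related genes in Epi-like cells, NDUFAF3 (complex I assembly) fell by 0.37, UQCC2 (complex III assembly) by 0.26, and COX14, PET117 and SCO2 (complex IV assembly) by 0.20, 0.32 and 0.32, as did TFB1M, an rRNA methyltransferase of the mitochondrion, by 0.29. They were 1 of 16, 1 of 6 and 3 of 20 assembly factors tested for these complexes, and 1 of 26 genes of mitochondrial transcription and RNA handling. YY1, 1 of 10 nuclear regulators tested, rose by 0.21. Over all 17014 genes 5.2% rose and 3.49% fell. None of the 4 complex II genes passed. The dose change in TE-like cells minus that in Epi-like cells was tested directly: 0 of 79 nuclear and 0 of 13 MT- members passed in either direction (over 13174 genes, 0.38% higher and 0.395% lower). At an unadjusted p below 0.05, 1 nuclear member was higher and 1 MT- gene lower in edgeR, and none in DESeq2. The MT- median of this difference was −0.18, with −0.48 in run 1 and 0.06 in run 2. Its sign turned without the mitochondrial limit, to a median of 0.07 with 9 of 13 genes above 0, of which 3 were higher and 0 lower at an unadjusted p below 0.05 in edgeR and none passed after adjustment.

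Within the MT- transcripts, complex I genes took a smaller part at 4 mM in every pair compared. They made up 24.2% of MT- UMIs at 4 mM and 25.0% at 0 mM in aggregates. In TE-like cells they made up 31.2% and 34.4% (runs 1 and 2) at 4 mM, against 33.5% and 37.2% at 0 mM. In Epi-like cells they made up 29.3% and 31.5% at 4 mM, against 30.8% and 34.0% at 0 mM. The differences ran from −2.77 to −0.79 percentage points, and 95% Wilson intervals for counting error were at widest 32.9 to 34.0%, for the TE-like cells of run 1 at 0 mM. These are 5 pairs from 3 pairs of cultures, since TE-like and Epi-like cells share them, and for 3 pairs an exact two-sided test cannot go below 0.25. The order was the same under each of the other cell filters tried, with differences of −3.01 to −0.58 points when the mitochondrial limit was dropped. Complex IV and complex V genes took a larger part at 4 mM in every pair. MT-CYB of complex III took a smaller part in aggregates (−0.81 points) and in TE-like cells of both runs, and a larger part in Epi-like cells of both runs. A smaller part is not a lower level: in aggregates the complex I MT- genes summed to 12781 CPM at 4 mM and 11053 CPM at 0 mM. MT-ND2 was a smaller part in each pair: it took 3.31% of MT- UMIs at 4 mM and 3.88% at 0 mM in aggregates, 5.84% and 6.93% at 4 mM against 6.95% and 7.84% at 0 mM in TE-like cells, and 5.70% and 6.58% at 4 mM against 6.36% and 7.35% at 0 mM in Epi-like cells. MT-ND3 was also a smaller part at 4 mM in all 5 pairs, and MT-CO3 and MT-ATP6 a larger part in all 5. MT-ND4, the most abundant complex I transcript, was larger at 4 mM in aggregates (12.2% against 10.5%) and smaller in the other 4 pairs.

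**Figure D5:**
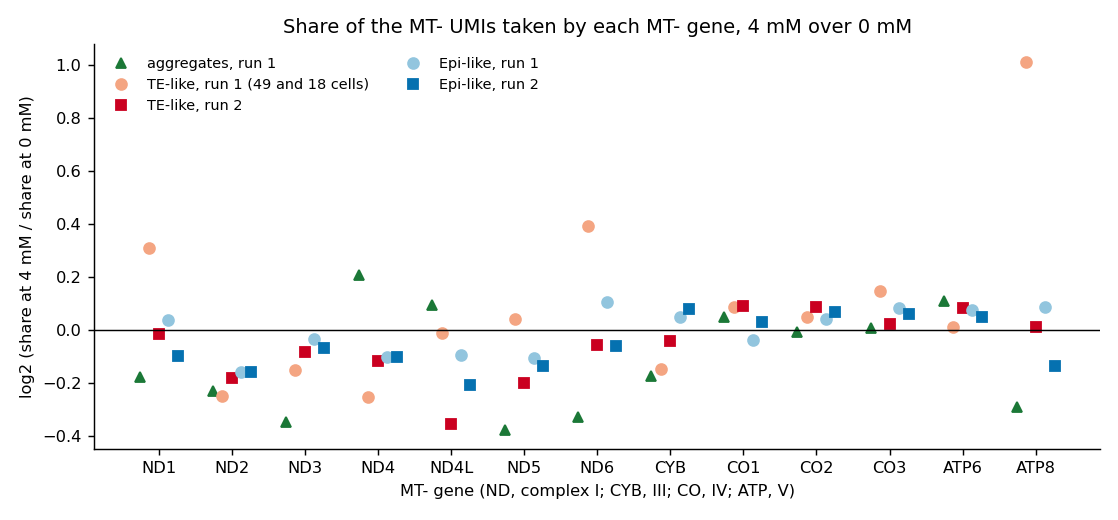
Log2 ratio of each MT- gene's share of the MT- UMIs, 4 mM over 0 mM (y axis), in aggregates, in TE-like cells of runs 1 and 2 and in Epi-like cells of runs 1 and 2, with genes along the x axis. All 5 points of MT-ND2 and MT-ND3 lie below 0 and all 5 of MT-CO3 and MT-ATP6 above it, and MT-ND4 is above 0 in aggregates only.

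In aggregates, with 1 culture a dose and no replicate check, genes averaging 20 CPM or more were counted when their log2 ratio passed 0.32 either way. Of 75 nuclear members 0 were past it higher and 3 lower at 4 mM, and of 13 MT- genes 3 were higher and 0 lower, while 5.19% of all 5090 genes were higher and 6.95% lower. The medians were 0.03 for nuclear members, 0.08 for MT- genes and −0.03 for all genes. The nuclear members past it were NDUFV3 (58.7 CPM at 4 mM, 81.0 CPM at 0 mM), COX7B2 (35.3 CPM at 4 mM, 46.1 CPM at 0 mM) and NDUFB3, a complex I accessory subunit (139.6 CPM at 4 mM, 178 CPM at 0 mM). MT-ND4 had 6415 CPM at 4 mM and 4656 CPM at 0 mM, a ratio of 1.38 (exact 95% interval 1.37 to 1.39, counting error only). MT-ATP6 had 5949 CPM at 4 mM and 4613 CPM at 0 mM, and MT-ND4L had 109.8 CPM at 4 mM and 86.2 CPM at 0 mM. MT-CO1 (11501 CPM at 4 mM, 9296 CPM at 0 mM), MT-CO2 (10520.5 CPM at 4 mM, 8848 CPM at 0 mM) and MT-CO3 (8574 CPM at 4 mM, 7133 CPM at 0 mM) had smaller ratios. MT-ND5 (655 CPM at 4 mM, 713 CPM at 0 mM), MT-ND3 (1873 CPM at 4 mM, 1995 CPM at 0 mM), MT-ND6 (113 CPM at 4 mM, 119 CPM at 0 mM) and MT-ATP8 (36.8 CPM at 4 mM, 37.6 CPM at 0 mM) were lower at 4 mM. With the mitochondrial limit 9 of 13 MT- genes were higher at 4 mM. Without it all 13 were, 6 of them past the ratio, with log2 ratios of 0.06 to 0.60.

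The run that held both stages allowed Epi-like cells at 120 h to be set beside aggregates at 40 h at each dose, a description chosen after the data were seen. Past a log2 ratio of 0.32 at both doses, 0 of 75 nuclear members were higher in Epi-like cells and 14 were lower, against 5.93% higher and 5.89% lower of 5094 genes. Nuclear medians were −0.31 at 4 mM and −0.21 at 0 mM, beside 0.003 and −0.08 for all genes. ATP5F1E, for example, had 261 CPM in Epi-like cells and 374 CPM in aggregates at 4 mM, and 247 CPM in Epi-like cells and 334 CPM in aggregates at 0 mM. NDUFB2, a complex I accessory subunit, had 239.6 CPM in Epi-like cells and 365 CPM in aggregates at 4 mM, and 235 CPM in Epi-like cells and 327 CPM in aggregates at 0 mM. Among MT- genes, 3 of complex I were higher in Epi-like cells: MT-ND5 (982 CPM against 655 CPM in aggregates at 4 mM, 1099 against 713 CPM at 0 mM), MT-ND2 (2524 CPM against 1744 CPM in aggregates at 4 mM, 2933 against 1713 CPM at 0 mM) and MT-ND1 (2455 CPM against 1871 CPM in aggregates at 4 mM, 2492 against 1770.0 CPM at 0 mM). MT-CO3 was lower (5529 CPM against 8574 CPM in aggregates at 4 mM, 5427.5 against 7133 CPM at 0 mM). Stage, medium, culture and time cannot be told apart here, because each dose had 1 culture of each stage in run 1 and only blastoids reached LY medium.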

How the data were processed

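Single-cell 3′ RNA libraries (10x v3.1) and hashtag libraries of 2 pooled capture runs were analysed. The authors deposited whole-number UMI counts per gene and cell and hashtag counts per barcode. The submitters' processing notes name bcl2fastq 2.20.0.422, Cell Ranger 6.1.2 and Seurat 4.3.0, and the reads were counted against GRCh38. The runs held 9431 and 15133 barcodes with 144122560 and 200278140 UMIs.

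Cultures were assigned by HTODemux on centred log ratios of the hashtag counts, at a positive quantile of 0.99 (Seurat 5.3.0, R 4.3.3). Hashtag doublets (512 and 1142) and negatives were removed, which left 6012 and 10400 single cells, and no transcriptome doublet caller was run. The cells kept had no more than 15% MT- UMIs, with a minimum of 7000 UMIs in run 1 and 5000 in run 2.

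The sums of counts over the cells of each culture and class entered edgeR 4.0.16 (F test of the quasi-likelihood fit, TMM, filterByExpr, run or culture in the model, Benjamini-Hochberg adjustment over all genes tested). Standard errors are the absolute log2 change divided by the square root of F. DESeq2 1.42.0, RLE factors, no low-count filter, other cell filters and left-out cultures were alternatives. Library totals alone, the stage comparison, the medians relative to all genes and the MT- make-up by dose were chosen after seeing the data. Run-wise log2 ratios are of CPM of library totals plus 0.5. Aggregates were not tested: CPM have exact 95% Poisson intervals. Intervals and floors (3 counts) cover counting error only. The tests were checked on simulated data with the same dispersion for all genes and no run or culture effects. That check does not show how the tests behave where genes differ in spread or runs differ, as they can here.

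Members and gene lists were chosen with earlier results of these data known. Named members were those with an adjusted p below 0.05 by dose in TE-like cells or in the dose by class test, the 10 largest changes each way at 20 CPM or more in the other tests and past a log2 ratio of 0.32 in aggregates, all MT- genes, tissue isoforms, and the most abundant nuclear genes of each complex. Gene positions are from GENCODE v44 (GRCh38) and promoter windows from RefSeq (GRCh38.p14), where the first listed window of a gene was used.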

Additional observations from a re-analysis of the deposited data

Results flagged for a closer look

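MT-ND4 and MT-ND4L moved one way with dose in aggregates and the other way in both runs of Epi-like cells. The log2 ratio of 4 mM over 0 mM was 0.4623 for MT-ND4 in aggregates, against −0.16 (run 1) and −0.07 (run 2) in Epi-like cells, and 0.3498 for MT-ND4L in aggregates, against −0.15 and −0.18 in Epi-like cells. The difference between the cultures was not tested. The exons of the 2 genes overlap, so that they are not independent. Of all hashtagged aggregate cells, before the UMI minimum, 39.2% at 4 mM and 24.5% at 0 mM were above the mitochondrial limit. The part of these cells was not tested.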

How the results depend on the processing

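Across the alternatives, 267 summary values counted as unchanged and 41 moved. A median counted as unchanged when it shifted by less than its standard deviation over runs or cultures, even where its sign turned. The MT- median of the dose by class test, for example, was −0.18 and became 0.07 without the mitochondrial limit, within a standard deviation of 0.38. Among values of single genes, 537 counted as unchanged, 62 kept their direction and lost the call, 5 moved and 3 turned round: in TE-like against Epi-like cells under library totals alone, COX7B was −0.018, MT-CO1 −0.020 and MT-CO2 −0.060. Where a run was left out of a dose test, unchanged meant the same sign only. In aggregates it meant a log2 ratio that moved by less than the counting error, without a test. The cause was not tested unless the setting itself shows it.

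In the TE-like dose test the count of MT- genes called lower (0) was 4 with RLE factors, 2 with no low-count filter, 2 with totals alone, 4 with a mitochondrial limit of 10%, 4 with 10000 UMIs in both runs and 1 with a 2-fold class margin. This count stayed at 0 with DESeq2, with no mitochondrial limit and with MT- genes left out of the totals. It also stayed at 0 with a higher hashtag quantile and with no replicate block. In the Epi-like dose test the nuclear count higher (1) was 0 with DESeq2, 2 with no mitochondrial limit, 2 with a limit of 10%, 2 with 10000 UMIs and 0 with no replicate block, where run is the block. The nuclear count lower (3) was 0 with DESeq2, 6 with totals alone, 5 with no mitochondrial limit, 5 with a class margin and 0 with no replicate block. The MT- count lower (0) was 3 with totals alone and 8 with no mitochondrial limit (MT-ND1, MT-ND2, MT-ND3, MT-ND4, MT-ND4L, MT-ND5, MT-ND6 and MT-ATP8), and the MT- median (−0.05) was −0.17 with no limit, −0.028 with a limit of 10%, −0.038 with 10000 UMIs, and −0.037 to −0.022 when each run was left out.

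In TE-like against Epi-like cells, totals alone gave 23 nuclear members higher, 10 lower and a nuclear median of 0.10. The MT- count higher (11) was 5 with DESeq2, 7 with no low-count filter, 3 with totals alone, 7 with no replicate block and 7 to 11 when each culture was left out. Totals alone gave 1 MT- gene lower in the dose by class test. In aggregates the MT- count higher (3) was 6 with no mitochondrial limit and 0 at a log2 ratio of 0.58, the nuclear count higher (0) was 1 with a limit of 10% and 1 with MT- genes left out of the totals (NDUFS4), and the nuclear count lower (3) was 0 at 0.58. The log2 ratio of summed shares in aggregates was −0.020 (nuclear) and 0.39 (MT-) with no mitochondrial limit and 0.26 (MT-) with a limit of 10%, against −0.001 and 0.26, and that of MT- genes in Epi-like cells was −0.12 with no limit, against −0.01.

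The TE-like sums of run 1 held 49 and 18 cells, which limits every statement on MT- genes in that class.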
